A study of Mus musculus with 13 samples.

Results

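The 8 genes described here belong to the FGF and ERK signalling pathway: the ligand gene Fgf4, the receptor genes Fgfr1 and Fgfr2, the inhibitor genes Spry2, Spry4 and Dusp6, and the target transcription factor genes Etv4 and Etv5. They were chosen by symbol, and each had 1 row among the 24470 rows of the mRNA count table. In this pathway a secreted fibroblast growth factor binds a receptor tyrosine kinase, which passes the signal through RAS, RAF and MEK to the kinase ERK. ERK enters the nucleus and switches on target genes, among them genes whose products damp the pathway again. In mouse embryonic stem cells Fgf4 is the main ligand made by the cells themselves, and ERK activity moves them from naive self-renewal towards lineage commitment.

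The cells were E14 embryonic stem cells of the mouse (129/Ola background), unmodified and grown in all groups with serum and leukemia inhibitory factor, a cytokine that keeps them pluripotent. The low-input protocol made an ATAC library of open chromatin and an mRNA library from the same cells. Experiment 1 used 10000 and 20000 cells and experiment 2, on another day, used 5000, 10000 and 20000 cells, which gave 5 mRNA and 5 ATAC libraries. Omni-ATAC, the benchmark protocol, contributed 1 ATAC library each from 5000, 10000 and 50000 cells. Every library comes from the same line, and each experiment is 1 day of culture, and the labels do not say whether libraries of a day are separate cultures, so the p-values below measure the spread between these libraries, which may be technical.

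The mRNA libraries held between 13727122 and 20426252 counts, and the limit that a count of 0 allows (3 counts) lay between 0.147 and 0.219 CPM, which scales each gene's count to a common library total. All 9 embryonic stem cell markers examined, Pou5f1, Sox2 and Nanog among them, had a mean of at least 10 CPM, and between experiments Klf4 was called higher and Utf1 lower in experiment 2. Of 6 formative or primed markers 5 were tested and Zic2 was called higher, at 0.754 ± 0.448 CPM in experiment 1 and 4.37 ± 0.531 CPM in experiment 2 (SD, n = 2), with 0.895 CPM in the experiment 2 library from 5000 cells. Their sum was 49.0 and 60.0 CPM in experiment 1 and 43.9 to 52.3 CPM in experiment 2. Of 8 primitive endoderm markers 5 had enough counts to be tested, and Gata6 and Dab2 were lower in experiment 2. That list summed to 46.8 and 55.0 CPM in experiment 1 and to 40.4, 47.0 and 50.8 CPM in experiment 2, mostly from Lama1, and 0 of its genes were at 0 in all libraries. Lama1 went against the rest, with 37.4 ± 8.56 CPM in experiment 1 and 46.1 ± 2.79 CPM in experiment 2 (SD, n = 2), and was not called. Dab2 had 6.29 and 0.761 CPM and Gata6 2.34 and 0.147 CPM on average in experiments 1 and 2. Of 8 fibroblast markers 2 were tested and Thy1 was lower in experiment 2. Their sum, 31.4 and 35.1 CPM in experiment 1 against 7.54 to 10.0 CPM in experiment 2, was nearly all Thy1, which had 31.5 ± 3.28 and 6.91 ± 0.197 CPM (SD, n = 2). The other fibroblast markers each averaged under 1 CPM, and Col3a1 and Lum were at 0 in all 5 libraries. The part of these markers in the differences between experiments was not tested, and in bulk RNA fewer cells of a type and less RNA per cell cannot be told apart.

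Differences were tested over the 4 libraries from 10000 and 20000 cells with edgeR's quasi-likelihood test, and p-values were adjusted by Benjamini-Hochberg over all 12523 genes tested. Between experiments, 1 of the 7 members tested was called at an adjusted p under 0.05, Fgfr1, which was higher in experiment 2. Over all genes 12.5% were called, 5.75% higher and 6.76% lower, so the members' share is near the background. Between 20000 and 10000 cells 0 of 7 members were called, as were 0% of all genes. There, edgeR's unadjusted p was under 0.05 for 0 members and 101 genes, and DESeq2 called 0 genes. The median log2 fold change of the 7 members between experiments was -0.11, beside 0.00 over all genes tested, and the median of its size was 0.29, beside 0.32. Fgfr2 did not have enough counts to be tested. Of simulated 2-fold changes 47.4% were called between experiments and 0% between cell numbers, so a change of that size could be missed in either comparison.

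**Figure D1:**
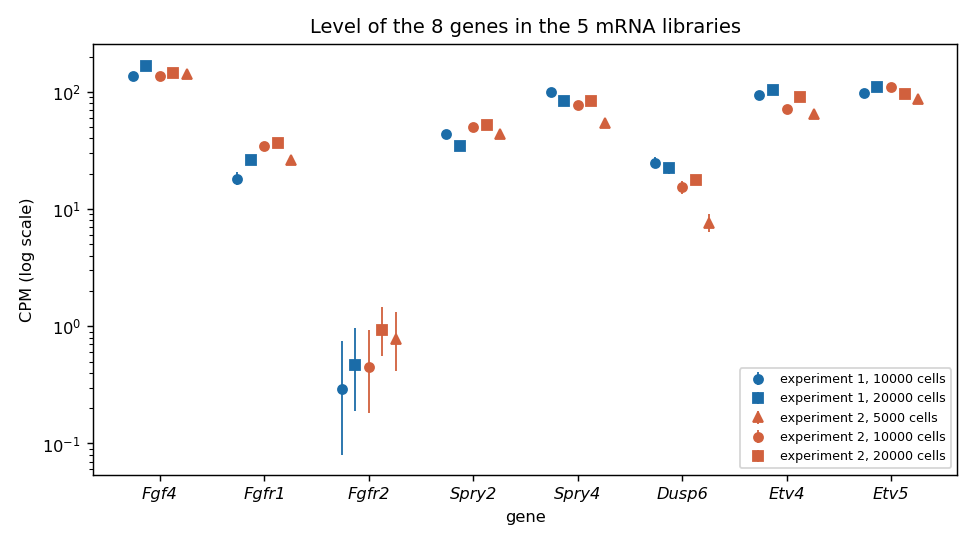
CPM of the 8 genes (log axis) in the 5 mRNA libraries, coloured by experiment and shaped by number of cells; bars are exact 95% Poisson intervals, which cover counting error only. Fgfr1 lies higher in the experiment 2 libraries from 10000 and 20000 cells than in experiment 1, Dusp6 lies lowest in the library from 5000 cells at 7.64 CPM, and Fgfr2 stays under 1 CPM in all libraries.

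Fgf4 encodes the fibroblast growth factor that stem cells of the early embryo secrete, and the gene lies on mm10 chromosome 7 (144861386 to 144865243, plus strand). It had 137 and 168 CPM in experiment 1 and 138 and 145 CPM in experiment 2 (10000 then 20000 cells), and 143 CPM in the library from 5000 cells. The values of experiment 2 lay inside the range of experiment 1. The log2 fold change of experiment 2 against experiment 1 was -0.11 ± 0.13 (SE, edgeR adjusted p = 0.669). The coefficient of variation of its CPM over the 5 libraries was 8.59%, a smaller spread than the median of 15.0% among 6485 genes averaging 10 CPM or more.

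The receptor gene Fgfr1 (chromosome 8, 25518759 to 25575718, plus strand) encodes the FGF receptor that embryonic stem cells use most. It had 18.2 and 26.4 CPM in experiment 1 and 34.2 and 36.8 CPM in experiment 2, with 26.4 CPM in the experiment 2 library from 5000 cells. The tested groups did not overlap, with experiment 2 higher, as for 30.4% of the 6485 genes averaging 10 CPM or more (21.1% when the library from 5000 cells was counted in). The log2 fold change between experiments was 0.67 ± 0.19 (SE, edgeR adjusted p = 0.0174). The library from 5000 cells, outside that fit, lay level with the higher library of experiment 1. With it added, the change was 0.58 ± 0.18 (edgeR adjusted p = 0.0451).

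The call for Fgfr1 depended on single libraries. Without the experiment 1 library from 10000 cells the log2 fold change was 0.43 (edgeR adjusted p = 0.267). It was 0.73 (adjusted p = 0.0665) without the experiment 2 library from 10000 cells and 0.63 (adjusted p = 0.118) without that from 20000 cells. Without the experiment 1 library from 20000 cells it was 0.98 (adjusted p = 0.000719). Genes of chromosome 8 were higher as a whole in experiment 2: the 409 averaging 10 CPM or more had a median log2 fold change of 0.46, and 91.9% of them were above 0. The part of that shift in the value for Fgfr1 was not tested.

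Fgfr2 (chromosome 7, 130162451 to 130266808, minus strand), the receptor gene that marks primitive endoderm as it separates from epiblast, was barely detected. It had 4 and 7 counts in experiment 1, 7 and 19 counts in experiment 2 and 13 counts in the library from 5000 cells, which is 0.291 to 0.930 CPM. The exact 95% Poisson interval of the lowest library ran from 0.0794 to 0.746 CPM and that of the highest from 0.560 to 1.45 CPM, so these intervals overlap.

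Among the inhibitors, Spry2 and Spry4 encode Sprouty proteins, which hold back signalling downstream of the receptor, and Dusp6 encodes a phosphatase that removes the activating phosphates from ERK. Spry2 (chromosome 14, 105891947 to 105896819, minus strand) had 43.7 and 34.3 CPM in experiment 1 and 50.3 and 52.2 CPM in experiment 2, with 43.7 CPM in the library from 5000 cells. The tested groups did not overlap, as for the 30.4% of genes above. With the library from 5000 cells, at 43.67 CPM, counted in, they overlapped, since experiment 1 reached 43.71 CPM. The log2 fold change of 0.40 ± 0.16 (SE) did not pass (edgeR adjusted p = 0.106). It ranged from 0.25 to 0.58 when 1 library was left out. The 185 genes of chromosome 14 at that level had a median log2 fold change of 0.20, and 72.4% were above 0; the part of this in the value for Spry2 was not tested.

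Spry4 (chromosome 18, 38586265 to 38601268, minus strand) had 100.3 and 82.8 CPM in experiment 1 and 77.5 and 83.2 CPM in experiment 2, and the lowest value, 53.9 CPM, came from the library from 5000 cells. The tested groups overlapped by a narrow margin. The log2 fold change between experiments was -0.19 ± 0.14 (SE, edgeR adjusted p = 0.425), and ranged from -0.30 to -0.042 when 1 library was left out, nearest to 0 without the experiment 1 library from 10000 cells.

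Dusp6 (chromosome 10, 99263231 to 99267489, plus strand) had 24.8 and 22.3 CPM in experiment 1 and 15.3 and 17.8 CPM in experiment 2, and 7.64 CPM with 5000 cells. All 3 libraries of experiment 2 lay below both libraries of experiment 1, a pattern shared by 25.2% of the 6485 genes (28.2% when only the 4 tested libraries were compared). Over the 4 tested libraries the log2 fold change was -0.51 ± 0.19 (SE, edgeR adjusted p = 0.0891). With the library from 5000 cells added it was -0.76 ± 0.24 (edgeR adjusted p = 0.0384), where 11.4% of all genes were called.

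Etv4 and Etv5 encode ETS-family transcription factors of the PEA3 group, whose transcription follows FGF and ERK activity in many tissues. Etv4 (chromosome 11, 101769748 to 101785310, minus strand) had 94.0 and 103 CPM in experiment 1 and 70.9 and 90.1 CPM in experiment 2, with 64.7 CPM in the library from 5000 cells. All 3 experiment 2 libraries were below experiment 1, as for 25.2% of the 6485 genes (28.2% over the 4 tested libraries). The log2 fold change over the 4 tested libraries was -0.29 ± 0.14 (SE, edgeR adjusted p = 0.18). It was -0.12 without the experiment 2 library from 10000 cells and -0.46 without that from 20000 cells. Etv5 (chromosome 16, 22381313 to 22439570, minus strand) had 98.7 and 109.6 CPM in experiment 1, 109 and 95.6 CPM in experiment 2 and 87.5 CPM with 5000 cells. The groups overlapped, and the log2 fold change was -0.02 ± 0.13 (edgeR adjusted p = 0.945). The coefficient of variation over the 5 libraries was 19.1% for Etv4 and 9.43% for Etv5, with no test of that difference.

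**Figure D2:**
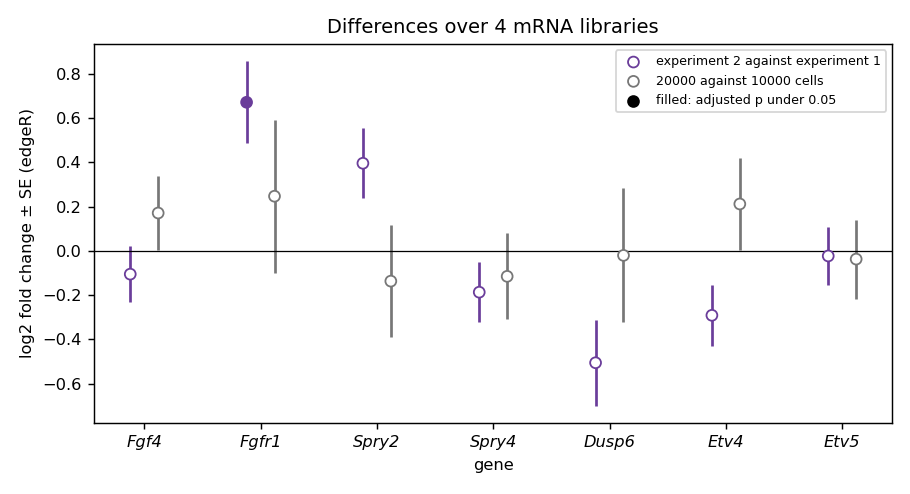
edgeR log2 fold change with its SE (vertical axis) for the 7 genes tested, for experiment 2 against experiment 1 (purple) and for 20000 against 10000 cells (grey), over the same 4 mRNA libraries. The only filled point, with an adjusted p under 0.05, is Fgfr1 between experiments at 0.67.

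For the effect of cell number, the log2 fold changes of 20000 against 10000 cells ran from -0.14 ± 0.25 for Spry2 to 0.25 ± 0.35 for Fgfr1 (SE), with an edgeR adjusted p of 0.999 for each of the 7 genes. With the experiment as a block, which removes the difference between days, 0 of the 7 were called again and 0.0319% of all genes were. In that paired fit Etv4 changed by 0.22 ± 0.14 and Fgfr1 by 0.29 ± 0.18 (edgeR adjusted p = 0.998 each). Taken within each experiment, the ratio of 20000 to 10000 cells had opposite signs for 4 of the 8 genes (Spry2, Spry4, Dusp6 and Etv5). For Spry2 it was -0.35 on the log2 scale in experiment 1 and 0.05 in experiment 2. The share of all genes with opposite signs was not counted, so these 4 have no background to be set against. Etv4 was the member with more than counting error (95% binomial interval) in the same direction in both, at 0.13 and 0.34, and it was picked out after its values were seen.

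Other genes of the pathway were read from lists by role, 61 genes in all, of which 51 had enough counts to be tested. Between experiments 9 of the 51 were called, 5 higher and 4 lower in experiment 2, beside the 12.5% called over all genes. Without the experiment 2 library from 10000 cells 5 were called, and without that from 20000 cells 4. By role the calls were 1 of 5 ligands, 0 of 3 receptors, 0 of 8 adaptors, 2 of 13 kinases and small GTPases of the cascade, 2 of 12 inhibitors and 4 of 10 targets. Their median log2 fold change was -0.08, and the median size of it was 0.33, beside 0.32 over all genes. Comparing cell numbers, edgeR called 0 of these 51 genes and gave 0 of them an unadjusted p under 0.05.

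Among the ligands, Fgf17 rose in experiment 2. Its mean was 8.61 ± 2.14 CPM in experiment 1 and 18.97 ± 5.85 CPM in experiment 2 (SD, n = 2), a log2 fold change of 1.14 ± 0.25 (SE) with an edgeR adjusted p of 0.00303. It had 21.9 CPM in the library from 5000 cells, also on the side of experiment 2. Without the experiment 2 library from 20000 cells its change was 0.80 ± 0.32 and was not called (edgeR adjusted p = 0.148). Fgf17 lies on chromosome 14, like Spry2. Fgf5, a ligand gene of the formative epiblast, reached 9 counts in its highest library, and 6 of the 11 ligands could not be tested.

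The receptors other than the members were low, and none of their differences or those of the adaptors passed the test. Fgfrl1, a receptor-like gene without a kinase domain and the receptor chosen by mean CPM among those listed, had 3.96 ± 1.72 CPM in experiment 1 and 3.14 ± 0.61 CPM in experiment 2 (SD, n = 2). Gab1, a docking protein for the phosphatase SHP2, had 101 ± 11.2 and 100.6 ± 0.0494 CPM (log2 fold change -0.01 ± 0.13 SE, edgeR adjusted p = 0.974). Gab1 lies on chromosome 8.

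In the kinase cascade, Rps6ka3 rose and Rps6ka1 fell in experiment 2; both encode RSK kinases, which ERK activates. Rps6ka3 had 14.5 ± 2.53 CPM in experiment 1 and 25.4 ± 1.18 CPM in experiment 2 (SD, n = 2), a change of 0.81 ± 0.20 on the log2 scale (SE, edgeR adjusted p = 0.00782). The library from 5000 cells had 14.9 CPM, near experiment 1, and with it added the change of 0.63 was not called (edgeR adjusted p = 0.0657). Rps6ka1 had 76.1 ± 14.2 and then 54.1 ± 4.98 CPM, a change of -0.49 ± 0.15 (edgeR adjusted p = 0.0316), and 52.6 CPM with 5000 cells. The change for Rps6ka1 ranged from -0.65 to -0.29 when 1 library was left out. Both calls were lost without either library from 10000 cells, and that for Rps6ka1 also without the experiment 2 library from 20000 cells. Map2k2, which encodes a MEK kinase, had 258 ± 24.3 and 227 ± 50.7 CPM and was not called (edgeR adjusted p = 0.425).

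Among the other inhibitors, Dusp9, which encodes another phosphatase for ERK, fell in experiment 2 and did so whichever library was left out. It had 133 ± 20.5 CPM in experiment 1, 71.1 ± 5.16 CPM in experiment 2 (SD, n = 2) and 69.7 CPM with 5000 cells, and its change was -0.90 ± 0.14 on the log2 scale (SE, edgeR adjusted p = 5.72e-05). Il17rd, which encodes the FGF antagonist Sef, rose by 0.91 ± 0.26 on the log2 scale from 6.38 ± 0.0382 CPM (edgeR adjusted p = 0.0223); the call was lost without the experiment 2 library from 10000 cells (adjusted p = 0.12) or from 20000 cells (adjusted p = 0.131), while the change stayed between 0.90 and 0.93 whichever library was left out. Like Spry2, Il17rd lies on chromosome 14, where the median of 185 genes was 0.20; the part of this shift was not tested. Il17rd and Phlda1, both under a mean of 10 CPM, are named because they complete the count of 9 and were chosen after their values were seen.

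Among the targets, Ccnd1, the gene of the cell cycle protein cyclin D1, rose and Myc, a growth-promoting transcription factor, fell in experiment 2, and both calls held without any 1 library. Ccnd1 had 53.8 ± 7.22 and 111.5 ± 8.05 CPM (SD, n = 2), a change of 1.05 ± 0.14 on the log2 scale (SE, edgeR adjusted p = 9.49e-06). Myc had 49.9 ± 7.53 and 25.3 ± 1.95 CPM, a change of -0.98 ± 0.17 (edgeR adjusted p = 0.000258). It lies on chromosome 15, where the median of 310 genes was -0.25; the part of this shift was not tested. Ier2, an immediate early gene, rose by 0.57 ± 0.14 (edgeR adjusted p = 0.00837) and lies on chromosome 8, with a change above the median of 0.46 there. Its call was lost without the library from 20000 cells of experiment 1 (0.44, adjusted p = 0.0831) or of experiment 2 (0.38, adjusted p = 0.175). Phlda1 fell by 1.03 ± 0.32 on the log2 scale (edgeR adjusted p = 0.0357), a call lost without either library from 10000 cells or the experiment 2 library from 20000 cells (adjusted p from 0.0771 to 0.272), and with DESeq2 (adjusted p = 0.0793). At 5000 cells Ccnd1 had 96.4 CPM, Myc 25.0 CPM and Ier2 148 CPM, each on the side of experiment 2.

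The genes whose pattern over the 5 libraries lay nearest were sought for Fgfr1 and Dusp6. Among the tested members these had the largest log2 fold changes between experiments. The measure was the root mean square difference of log2(CPM + 1) after centring each gene, among the 6485 genes above. Nearest to Fgfr1 were Cand1 (0.052), Cog4 (0.057) and Map2k7 (0.063), of which Cog4 and Map2k7 lie on chromosome 8. Genes of that chromosome were also near Spry2, a chromosome 14 gene: Arhgef7 and Psme3ip1, named after their values were seen, were among its nearest 3. Nearest to Dusp6 were Laptm5 (0.13), Lamb1 (0.14) and Stoml1 (0.15). Laptm5, for example, had 61.4 and 58.6 CPM in experiment 1, 36.1 and 38.5 CPM in experiment 2 and 22.7 CPM with 5000 cells.

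No replicate exists of the library from 5000 cells, so its values are given next to the rest of experiment 2 without a test. On the log2(CPM + 1) scale, Dusp6 was lower by the largest margin among the members, at -1.02 relative to the average of its 10000-cell and 20000-cell counterparts. Of the 6485 genes, 0.185% were as low or lower. Spry4 differed by -0.57, Fgfr1 by -0.41, Etv4 by -0.30, Spry2 by -0.23 and Etv5 by -0.22, while Fgf4 differed by 0.01 and Fgfr2, at few counts, by 0.09. The median of the 6485 genes was -0.10 and 65.2% were below 0, so differences of the size seen for Spry2 and Etv5 are common in this library. Of 11512 genes averaging 1 CPM or more, 63.3% were lower at all and 2.23% at least 2-fold lower, against 6 and 1 of the members. The exact 95% Poisson intervals of Dusp6 were 6.37 to 9.08 CPM with 5000 cells and 13.5 to 17.4 CPM with 10000 cells. With library sizes scaled by TMM the difference for Dusp6 was -0.94.

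**Figure D3:**
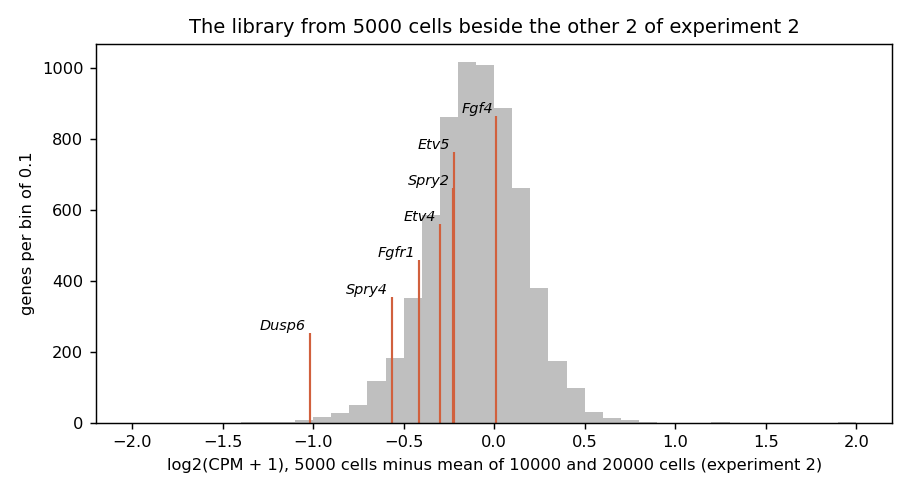
Distribution over 6485 genes of the difference in log2(CPM + 1) of the 5000-cell library from the average of both larger inputs in experiment 2 (grey bars, genes per bin), with 7 members as vertical lines whose heights carry no value. Dusp6 lies in the left tail at -1.02 and Fgf4 near 0.

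Open chromatin was then read at the members' start sites, which were placed at the upstream end of the gene's interval given with the counts. The ATAC files list intervals without heights, and their read depth is unknown, so a missing peak says that none was called in that list. A promoter peak was a peak overlapping the window of 1000 bp on either side of the start. Dusp6, Etv4 and Etv5 had a promoter peak in all 8 lists, as did 14.8% of all genes and 32.2% of those averaging 10 CPM or more. Spry4 had it in 7 lists, Fgfr1 and Spry2 in 6, Fgfr2 in 2 and Fgf4 in 1. Counting only peaks of at least 50 bp, Etv5 kept 8 lists, Dusp6, Etv4 and Spry4 had 7, Fgfr1 4, Spry2 3, and Fgfr2 and Fgf4 1. Taking only the 9097 widest peaks of every list, Etv5, Dusp6 and Spry4 had 7 lists, Etv4 6, Fgfr1 3 and Spry2 2. The intervals are the authors', and the shortest are 9 bp long.

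Counted by list, promoter peaks were present for 5 of the 8 members in the low-input list from 5000 cells, where 31.1% of all genes had one. They were present for 5 and 7 members with 10000 cells (31.1% and 40.5% of all genes, experiment 1 then 2) and for 6 and 6 with 20000 cells (37.4% and 50.3%). In the Omni-ATAC lists the counts were 3, 6 and 8 members with 5000, 10000 and 50000 cells, beside 18.6%, 41.5% and 61.1% of all genes. For genes averaging 10 CPM or more the shares were higher, from 38.8% in the Omni-ATAC list from 5000 cells to 95.7% in that from 50000 cells. At 5000 cells Spry4 and Fgfr1 had a promoter peak in the low-input list, for Fgfr1 of 9 bp, and not in the Omni-ATAC list. These lists hold 18637 and 9097 peaks. With the low-input list limited to its 9097 widest peaks, Spry4 kept its promoter peak there and Fgfr1 did not, and Etv4 had a peak in the Omni-ATAC list alone (9 bp wide in the full low-input list and 151 bp in the Omni-ATAC list). Each protocol then had 3 members with a promoter peak, Dusp6 and Etv5 in both. There is 1 list per protocol at this cell number, so protocol and library cannot be told apart.

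**Figure D4:**
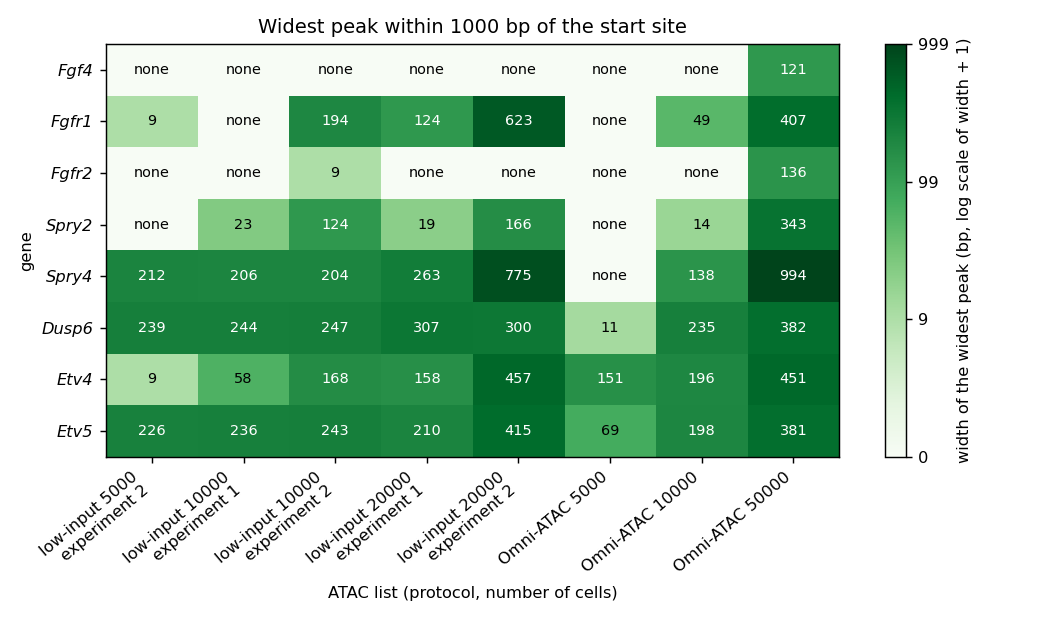
Width in bp of the widest peak within 1000 bp of the start site for the 8 genes (rows) in the 8 ATAC lists (columns), printed in each cell and coloured on a log scale. Dusp6, Etv4 and Etv5 have a peak in every list, while Fgf4 has one of 121 bp in the Omni-ATAC list from 50000 cells alone.

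Upstream sequences are shown for Etv5 and Dusp6, which had a peak within 1000 bp of the start in all 8 lists, and for Fgf4, which had one in 1 list. They are the 250 bases before the RefSeq start of GRCm38.p6, whose starts equal those of the count table for these genes, 5′ to 3′ on the gene's own strand. Capitals mark bases covered by a peak in at least 4 of the 8 lists. The Etv5 window is chr16:22439571-22439820 (minus strand), that of Dusp6 is chr10:99262981-99263230 (plus strand) and that of Fgf4 is chr7:144861136-144861385 (plus strand).
Etv5: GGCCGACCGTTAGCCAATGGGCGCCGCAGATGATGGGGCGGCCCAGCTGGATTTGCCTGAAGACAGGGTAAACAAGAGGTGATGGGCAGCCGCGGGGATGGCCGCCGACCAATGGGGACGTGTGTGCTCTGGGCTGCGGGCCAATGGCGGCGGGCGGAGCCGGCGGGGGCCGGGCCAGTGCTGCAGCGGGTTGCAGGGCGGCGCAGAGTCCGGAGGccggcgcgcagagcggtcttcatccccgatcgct
Dusp6: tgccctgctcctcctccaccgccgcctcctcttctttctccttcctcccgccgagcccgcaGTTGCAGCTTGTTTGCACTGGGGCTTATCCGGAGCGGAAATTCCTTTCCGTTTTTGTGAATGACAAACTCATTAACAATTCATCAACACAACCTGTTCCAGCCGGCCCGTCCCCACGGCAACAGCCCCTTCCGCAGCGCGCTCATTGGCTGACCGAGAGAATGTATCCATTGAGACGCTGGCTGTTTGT
Fgf4: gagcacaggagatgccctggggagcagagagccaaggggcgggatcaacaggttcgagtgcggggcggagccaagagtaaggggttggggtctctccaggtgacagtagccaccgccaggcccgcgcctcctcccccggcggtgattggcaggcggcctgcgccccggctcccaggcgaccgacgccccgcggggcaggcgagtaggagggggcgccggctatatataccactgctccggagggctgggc
In the Etv5 window 216 bases were covered in at least 4 lists, from -250 to -35 relative to the start, and in the Dusp6 window 189 bases, from -189 to -1. Up to 8 lists covered a base of the Etv5 window and up to 7 of the Dusp6 window, since in the 5000-cell Omni-ATAC list the Dusp6 peak lay downstream of the start. The Fgf4 window had 0 such bases, and a peak of 1 list reached into it.

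Windows from RefSeq were matched for 5 members, the other 2 being Fgfr2 and Spry2. The GC content was 71.2% for Etv5 and also for Fgf4, 62.4% for Spry2, 56.4% for Dusp6 and 44.0% for Fgfr2, beside a median of 52.4% over 32851 promoters. Short motifs were searched on both strands. The GC box GGGCGG matched at -215, -99 and -55 in Etv5 and at -214 and -188 in Fgf4 (first base of the match), and 32.7% of all promoters hold it. CCAAT, added after the sequences were seen and present in 33.8% of all promoters, matched at -237, -142 and -110 in Etv5, at -46 in Dusp6 and at -106 in Fgf4. The ETS motif CGGAAGT (4.92% of all promoters), the AP-1 motif TGANTCA (6.75%), ACGTCA of the cyclic AMP response element (6.47%), the octamer ATGCAAA (4.12%) and the SOX motif CATTGTT (3.29%) matched in 0 of the 5 windows. A match or its absence describes these letters in these windows only.

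At the Etv5 start the peak was 198 to 415 bp wide in 7 lists and 69 bp in the Omni-ATAC list from 5000 cells. The Dusp6 peak was 235 to 382 bp wide in 7 lists and 11 bp in that same Omni-ATAC list. In the low-input list from 5000 cells, made from the cells whose mRNA library had the lowest Dusp6 level, it was 239 bp wide, next to 244 to 307 bp in the other low-input lists. Peak height is not in these lists. The Etv4 peak was 9 bp wide in the low-input list from 5000 cells and 58 bp in the experiment 1 list from 10000 cells, against 158 to 457 bp in the other low-input lists.

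Fgfr1 had no promoter peak in the experiment 1 list from 10000 cells, whose mRNA library also had its lowest level of 18.2 CPM, and one of 194 bp in the experiment 2 list from 10000 cells, with 34.2 CPM. With 20000 cells the widest peak was 124 bp in experiment 1 and 623 bp in experiment 2. The experiment 2 lists are also longer (29870 against 18877 peaks with 10000 cells and 49508 against 27016 with 20000 cells), and whether the difference at Fgfr1 exceeds that was not tested. Spry4 peaks measured 204 to 263 bp in 4 low-input lists and 775 bp in the experiment 2 list from 20000 cells. Spry2, with a peak in 6 lists within 1000 bp, had one in 3 lists within 500 bp.

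Fgf4, with at least 137 CPM in every mRNA library, had a promoter peak in 1 list. Of the genes averaging 10 CPM or more, 8.39% had a promoter peak in at most 1 list, and the median was 7 lists. Fgf4 stayed at 1 list with a window of 2500 bp, and had 0 when each list was limited to its 9097 widest peaks or to peaks in the authors' unified list. Fgfr2 also went from 2 lists to 0 under both limits. The recurrent open regions near Fgf4 lay further off. Overlapping peaks of different lists were merged into regions, counted as recurrent in at least 5 of the 8 lists. Upstream, a region from -4161 to -3771 relative to the start (chromosome 7, 144857225 to 144857615) was open in 7 lists, and another from -3589 to -3143 in 5. A region inside the gene, from 2880 to 3412 (chromosome 7, 144864266 to 144864798), ended 445 bp before the gene's end and was open in 6 lists. It is a merge of peaks of 216 bp in the experiment 2 list from 20000 cells and 533 bp in the Omni-ATAC list from 50000 cells with peaks of 9 to 14 bp in the others. Fgf4 is known for an enhancer in its last exon that binds OCT4 and SOX2; exon positions were not used here. The remaining recurrent regions near Fgf4 lay 402 bp from the start of the neighbouring Fgf15 gene (7 lists) and 20 bp from that of LTO1 (8 lists).

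Over the 8 members, gene bodies extended by 50000 bp on each side held 142 merged regions, of which 27 were recurrent, 7 were in all 8 lists and 64 were in the Omni-ATAC list from 50000 cells alone. That list holds 95457 peaks, against 9097 to 49508 in the others. Regions were not merged over all genes, so these counts have no background share. In that extended window 7 members had a peak in the low-input list from 5000 cells (72% of all genes), the experiment 1 list from 10000 cells (71.9%) and the Omni-ATAC list from 5000 cells (55.8%). All 8 members had one in the experiment 2 list from 10000 cells (80.1%), in both lists from 20000 cells (78.3% and 86.3%) and in the Omni-ATAC lists from 10000 and 50000 cells (82.3% and 93.4%). Fgfr2 was the member without one in those 3 lists. Its single recurrent region lay inside the gene, from 14369 to 14654 (chromosome 7, 130252154 to 130252439), in 5 lists, with peaks of 9 to 286 bp.

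For the other receptor, Fgfr1, a region inside the gene from 24681 to 25041 was open in 7 lists, in 4 of them as a peak of 9 bp. Beyond its end the recurrent regions lay at the start of Letm2 and 246 bp from that of Nsd3, the neighbouring genes. The distal recurrent regions of Spry2 lay at least 185012 bp from the start of any other gene in the count table. They ran from -24367 to -23851 (chromosome 14, 105920670 to 105921186) in 7 lists, from 37000 to 37907 (105858912 to 105859819) in 8 lists and from 44933 to 45369 in 5 lists. The region downstream of Spry2 from 37000 was the only region of this gene that the Omni-ATAC list from 5000 cells held. Its peak there, of 9 bp, overlapped no peak of the experiment 1 list from 10000 cells, so the 8 lists share no single stretch. Spry4 had a region from 28416 to 28579 in 6 lists, in 5 of them 9 bp wide.

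Near Dusp6 a region from -1988 to -1690 was open in 5 lists. It was 299 bp wide in the Omni-ATAC list from 50000 cells and held peaks of 9 to 13 bp in the others. Another from 35282 to 35879 (chromosome 10, 99298513 to 99299110) was open in 6, among them all 3 Omni-ATAC lists. In the experiment 1 lists and the Omni-ATAC list from 5000 cells its peaks were 9 to 15 bp wide. In the others they were 151 to 598 bp wide. The Etv4 gene body held a region from 12475 to 13029 (chromosome 11, 101772281 to 101772835) in 6 lists, with peaks of 9 to 555 bp. The Etv5 gene body held one from 9939 to 10699 (chromosome 16, 22428871 to 22429631) in all 8 lists, 20 bp wide in the Omni-ATAC list from 5000 cells and 137 bp or more in the others. A further region inside Etv5, from 40875 to 41128, was open in 5 lists. It was 254 bp wide in the Omni-ATAC list from 50000 cells and 9 bp in the others.

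**Figure D5:**
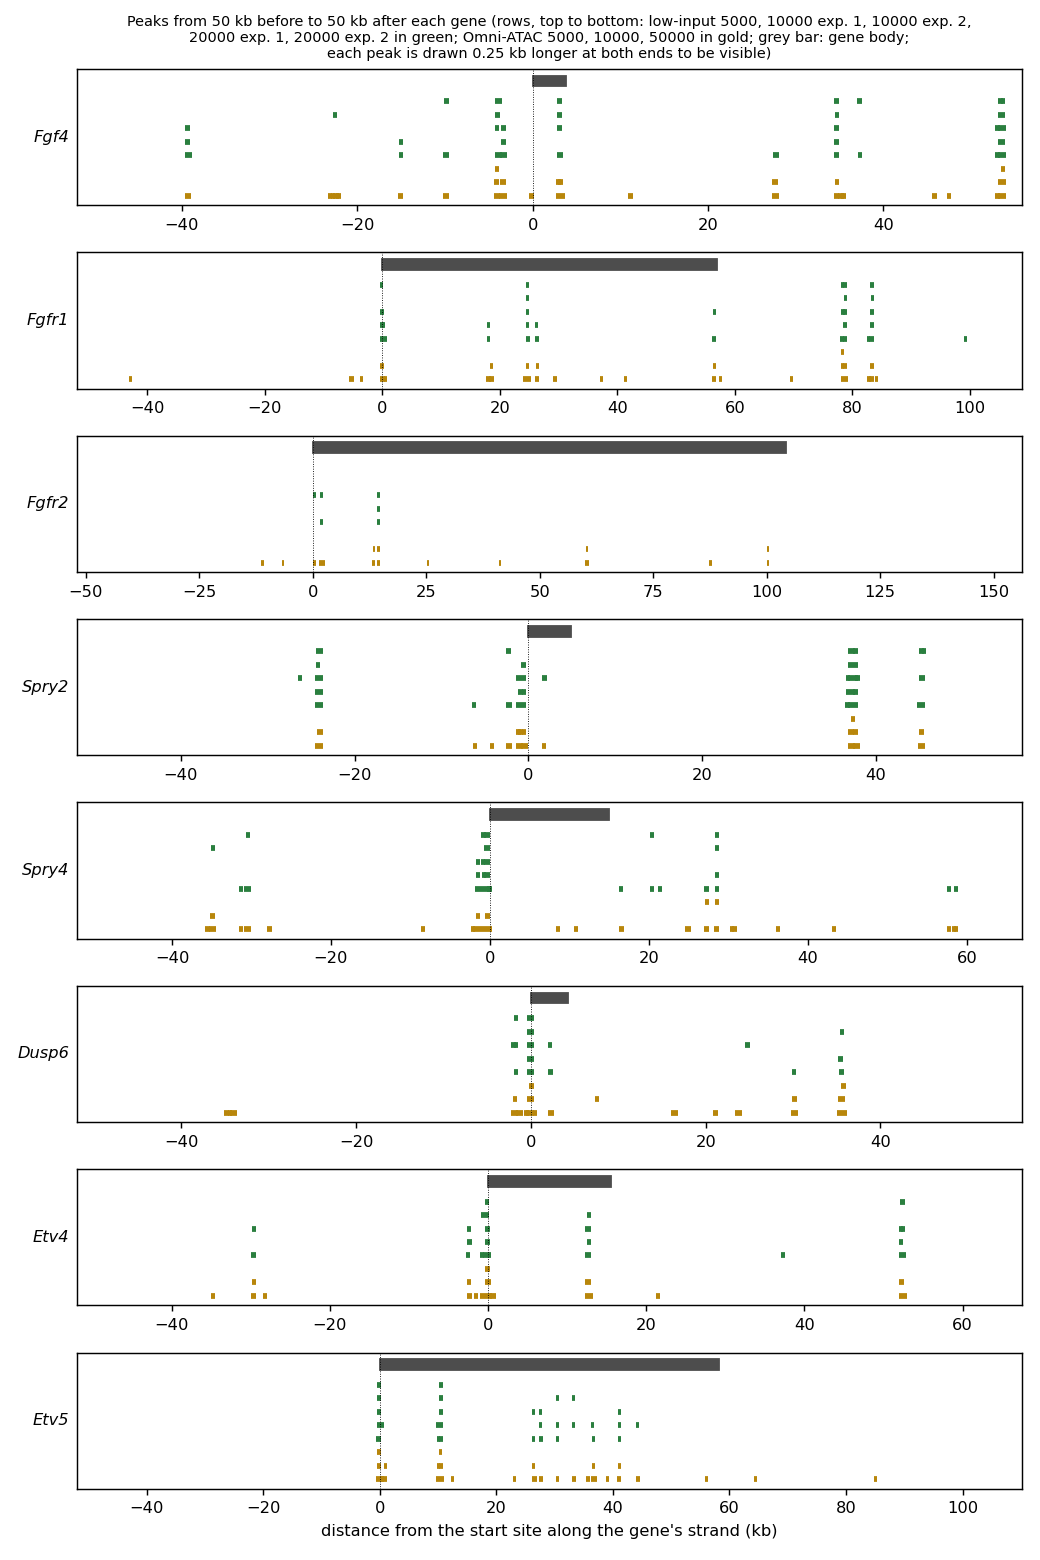
Peaks of the 8 ATAC lists (rows in each panel; low-input in green, Omni-ATAC in gold) by distance in kb from the start site along the gene's strand, with the gene body as a grey bar; each peak is drawn 0.25 kb longer at both ends. Columns of marks show the recurrent regions, such as the merged distal region of Spry2 with a peak in all 8 lists and the region inside Etv5. The lowest row, from 50000 cells, holds at least as many peaks as any other row of its panel.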

How the data were processed

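The mRNA table deposited by the authors holds raw gene counts of 5 libraries; per the file headers its gene coordinates are mm10. For ATAC, interval starts and ends without heights (other values) were deposited by the authors as 8 lists of 1 library each and a unified list. The submitters' processing notes name cutadapt, Bowtie2 2.1.0, SAMtools 1.3.1, Picard, bedtools 2.24.0, MACS2 2.1.1, STAR 2.5, featureCounts and Subread 1.5.0-p1, with no role or settings; strand use, reads that match several places and the peak threshold are not given in the sources used here, so overlapping and antisense genes cannot be told apart. The members and lists were chosen with earlier results of these data known.

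CPM were computed from library totals. edgeR 4.0.16 (TMM, filterByExpr, quasi-likelihood test, R 4.3.3) was fitted to all genes over 4 libraries, 2 per group, with a threshold of 0.05 on the Benjamini-Hochberg adjusted p. The steps were tested on simulated counts: between experiments 47.4% of 2-fold changes (12496 genes) and 97.4% of 4-fold changes (12492 genes) were called, and between cell numbers 0% and 55.2% (12527 genes each). The experiment number marks a shared day, per the series' design text, and so pairs libraries; differences between experiments at 10000 and 20000 cells correlated across 11512 genes with r = 0.5625. Any pair of mRNA libraries differed beyond sampling noise (chi-square per gene at least 10.7). Intervals and floors reflect counting error alone: no molecular identifiers are named in the sources used here.

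Peaks were intersected with bedtools 2.31.1 at an overlap of at least 1 bp. All 8 members were named; of 61 other pathway genes, those with an adjusted p under 0.05 and a mean of at least 10 CPM (at most 12) and the gene with the highest mean CPM of each role, which is a rule for naming only and, with no length scaling, no order of expression. The RefSeq table gives genomic spans, not transcript lengths, so no order of levels between genes is reported. Python 3.11.15, pandas 2.3.3, scipy 1.17.1 and matplotlib 3.10.9 were used. The alternatives were RLE or no scaling factors, DESeq2 1.42.0, other filters, blocks, a fold minimum, leaving out chromosomes 8 and Y or single libraries, other windows, and limits on peak width.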

Additional observations from a re-analysis of the deposited data

Results flagged for a closer look

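Etv5 moved in opposite directions with cell number in the experiments, each time by more than counting error. The log2 ratio of 20000 to 10000 cells was 0.15 in experiment 1 (95% exact binomial interval 0.05 to 0.26) and -0.19 in experiment 2 (-0.29 to -0.10), a difference of -0.34. There is 1 library per cell number in each experiment, so the difference was not tested, and the interval leaves out the spread between libraries. Over all genes compared, the chi-square per gene between these libraries was 10.65 in experiment 1 and 14.68 in experiment 2. Counting error was thus exceeded on average, and the share of genes moving like Etv5 was not counted.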

How the results depend on the processing

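The number of members called between experiments was 1, and it stayed at 1 (Fgfr1) with RLE factors, library size alone, DESeq2, either other filter on low counts, and cell number as a block. It was 0 under a 2-fold minimum, 0 without chromosomes 8 and Y, where Fgfr1 itself is left out, and 2 with the 5000-cell library added (Dusp6 and Fgfr1). With 1 library left out it ranged from 0 to 1; the lone library of that group is then assumed to vary like the others. Between cell numbers it was 0 throughout, and the replicate block, which pairs the libraries by day, changed no member's call; it moved Dusp6 from -0.02 to 0.0076. The number of members at least 2-fold away at 5000 cells was 1, and 0 with TMM scaling. Among named genes not called, Etv5 (0.00079) and Gab1 (0.014) changed sign without a filter, and Gab1 (0.065) with the 5000-cell library added. With 1 library left out the changes between experiments that turned ranged from -0.24 to 0.064 for Fgf4, -0.12 to 0.083 for Etv5, -0.69 to 0.20 for Fgfrl1, -0.10 to 0.11 for Gab1 and -0.42 to 0.034 for Map2k2. Without a change of sign, those for Fgfr1 (0.43 to 0.98), Ier2 (0.38 to 0.76), Spry2 (0.25 to 0.58), Spry4 (-0.30 to -0.042), Etv4 (-0.46 to -0.12) and Rps6ka1 (-0.65 to -0.29) moved by over 1.5 times. Those between cell numbers ranged from -0.13 to 0.80 for Fgfr1, -0.46 to 0.14 for Spry2, -0.27 to 0.086 for Spry4, -0.31 to 0.37 for Dusp6 and -0.13 to 0.067 for Etv5, and without a change of sign from 0.039 to 0.43 for Etv4 and 0.074 to 0.28 for Fgf4. Of the other pathway genes 9 were called, 3 under a 2-fold minimum (fewer genes pass by construction) and 4 to 9 with 1 library left out. Over all genes the 1567 calls between experiments became 612 under that minimum and 803 to 1817 with 1 library left out; between cell numbers 0 became 4 with the replicate block and 2 without a filter. Without a filter the median of all genes between experiments was 0.12 on the log2 scale. Where no construction is named, the cause was not tested. Promoter peaks over 8 members and 8 lists numbered 46, and 32 to 48 under the alternatives. The planned comparison of levels per transcript length was not run, since no such lengths were used. The depth of the ATAC libraries is unknown.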
